A study of Saccharomyces cerevisiae with 6 samples.

Results

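The transcripts of 34 genes that encode the initiation, elongation and termination factors of cytosolic translation in budding yeast (Saccharomyces cerevisiae) were examined. The members were taken as a fixed list of gene symbols, without the subunits of eIF2 and eIF2B, and each was matched to the platform's gene names. Probe sets carried the names of 31 members, out of 5449 genes measured, and each of the 31 had a single probe set. TIF1, TEF1 and EFT1 had no probe set under their own names and were not analysed separately here. TIF2, TEF2 and EFT2, which encode the same proteins as these genes, each had a probe set whose suffix marks probes shared between transcripts, so their values may hold the signal of both copies.

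RNA came from haploid MAT a cells of the S288C strain, wild type or carrying gcn4-delta, a deletion of the gene for Gcn4, the activator of amino acid biosynthesis genes. Cells were grown with air in chemostats at 30 °C, pH 5 and a dilution rate of 0.10 per hour, with glucose supply limiting growth, in YNB medium with aminotriazole (3AT), an inhibitor of histidine synthesis. The 3 wild-type arrays came from medium with 10 mM 3AT and the 3 gcn4-delta arrays from medium with 0.1 mM 3AT, so strain and dose cannot be told apart in any difference given here. The labels do not tell if replicates were separate cultures, so the spread behind each p-value is that between arrays and may be technical. A level is that of the whole RNA sample, in which fewer expressing cells and less RNA per cell cannot be told apart.

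Translation begins when the cap-binding complex eIF4F, made of the cap-binding protein eIF4E, the scaffold eIF4G and the helicase eIF4A, brings an mRNA to a small ribosomal subunit that carries eIF1, eIF1A, eIF3, eIF5 and the initiator tRNA on eIF2. The subunit scans to a start codon and eIF5B joins the large subunit. During elongation eEF1A delivers aminoacyl-tRNA, its exchange factor eEF1B recharges it, eEF2 moves the ribosome along, and fungi need a further factor, eEF3. At a stop codon eRF1 and eRF3 release the chain, and Rli1 splits the ribosome for another round. In amino acid starvation the kinase Gcn2 phosphorylates eIF2, which lowers general initiation and raises translation of GCN4 mRNA.

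The deposited values are intensities after RMA, on a linear scale. GCN4 itself read 7312, 7309 and 7248 in wild-type replicates 1, 2 and 3 and 14.5, 213 and 11.4 in the gcn4-delta replicates. It was thus above the background level, which lay between 17.9 and 25.2, on 1 of the 3 gcn4-delta arrays. The summed intensity of 6 MATa markers was 8111 to 12097 in the wild type and 11461 to 12136 in gcn4-delta. That of 4 MATα markers was 604 to 934 and 694 to 727, and 0 of these 10 genes passed the test (limma, 2 of them at an unadjusted p under 0.05). All 31 translation factors were above background on all 6 arrays.

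No translation factor passed the test between the strains. Of the 31, 0 were higher and 0 lower in gcn4-delta at an adjusted p under 0.05 (limma, Benjamini-Hochberg over all probe sets), where 11.3% of all genes passed, 291 of them higher and 327 lower. That background of 618 genes depends on single arrays: it was 220, 258 and 372 genes without gcn4-delta replicates 1, 2 and 3, and 384 without wild-type replicate 3. At an unadjusted p under 0.05 the count was 4, namely ANB1, TIF34, TEF4 and SUP35, all higher in gcn4-delta, against 28.6% of all genes. Most members' values lay near 0. Their median log2 change, gcn4-delta minus wild type, was 0.057 against 0.035 for all genes, and the median size of the change was 0.12 against 0.18. The fitted log2 change was over 0.5 in size for 2 of 31, DED1 and ANB1, and for 13.5% of all genes. Values above 0 numbered 20 of 31 and 55.7% of all genes. Among the members the number was between 21 and 23 under quantile normalization again and median centring. It depended on single arrays, from 17 without wild-type replicate 3 and 18 without gcn4-delta replicate 3 to 23 without wild-type replicate 1. The count over all 5449 genes moved in these fits too, to 2922, 2846 and 3186 in the same order, from 3037 with no array left out.

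For most members the intervals limit the size of a missed difference between these sets of arrays. They rest on the spread between arrays, which may be technical, so they need not bound a difference between cultures. Nor do they bound an effect of strain apart from dose. The 95% interval of the log2 change, taken for each gene by itself, lay within 0.5 of 0 (1.41-fold) for 26 of the 31, as it did for 53.5% of all genes. The intervals of DED1, NIP1, TIF35, RLI1 and ANB1 reached further than 0.5 from 0. The arrays of a group lay close together: the median standard deviation within groups was 0.095 on the log2 scale for the members, 0.14 for all genes and 0.11 for genes at or above the lower quartile of the members' brightness. The groups did not overlap for 12 members, against 35.7% of all genes. Of the 12, 11 were higher and 1, TEF2, lower in gcn4-delta, where 21.1% of all genes were higher and 14.6% lower without overlap. A missed threshold does not show that a transcript was equal in the strains.

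**Figure D1:**
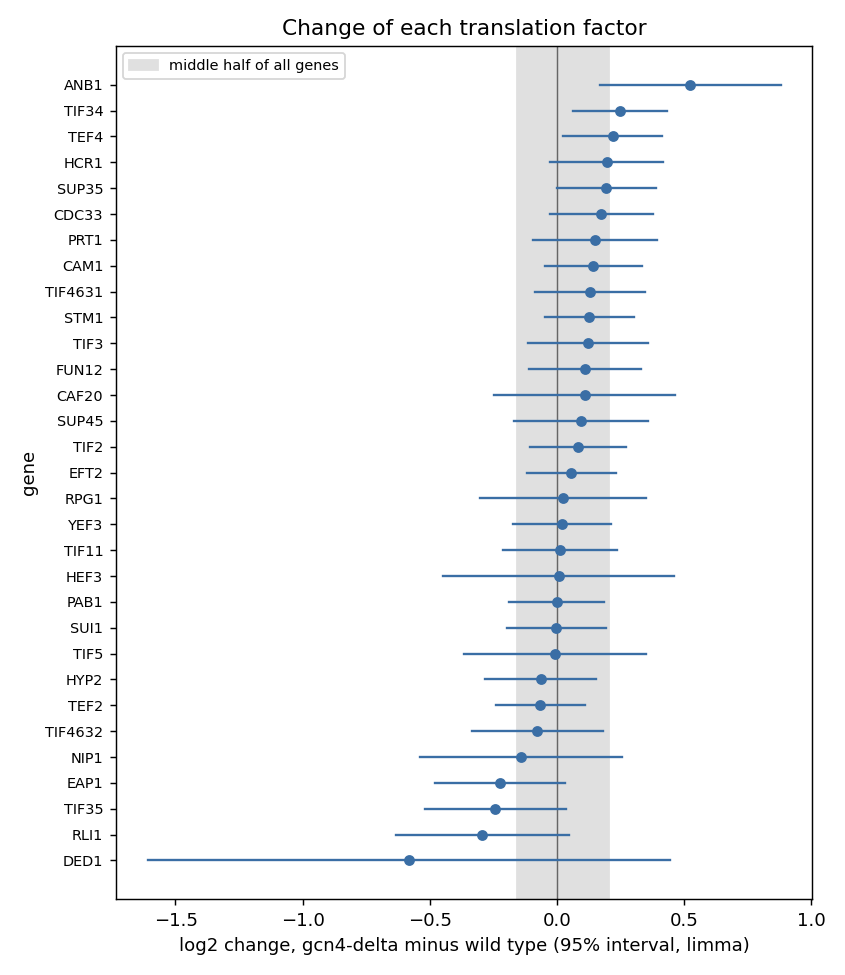
Log2 change of each of the 31 translation factors (x axis, gcn4-delta minus wild type) with its 95% interval from limma, genes ordered by their change on the y axis. The grey band holds the genes between the lower and upper quartile of all 5449. Only the intervals of ANB1, TIF34, TEF4 and SUP35 leave out 0, that of SUP35 barely (0.00017 to 0.39), and that of DED1 spans -1.61 to 0.44.

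Among the factors that bind the mRNA's cap and tail, 0 of 9 passed and the median log2 change was 0.082. CDC33, the gene of eIF4E, read 3579, 3581 and 3507 in the wild type and 3968, 3768 and 4330.1 in gcn4-delta. All 3 gcn4-delta values were above the wild-type values, and the log2 difference was 0.18 ± 0.085 (SE, limma, adjusted p = 0.228). TIF2, for the helicase eIF4A, read 6084, 5945 and 5572 in the wild type and 6131, 6384 and 6109.9 in gcn4-delta, at 0.082 (adjusted p = 0.528), without overlap. TIF3, for its partner eIF4B, was at 0.12 with overlapping groups. PAB1, for the poly(A)-binding protein, read 4640.4, 4341 and 4502 and 4507, 4330.2 and 4639. Its log2 change was the one nearest to 0 among the members, at -0.00082 with an interval of -0.19 to 0.19. CAF20, for a protein that competes with eIF4G for eIF4E, read 3049.6, 2447 and 2028 and 2699.5, 2665 and 2643, with the gcn4-delta arrays inside the wild-type range. EAP1, for the other such competitor, read 894, 732 and 812 and 643, 699 and 743, with 2 of 3 gcn4-delta arrays below the lowest wild-type array. They were on opposite sides of 0, CAF20 at 0.11 (interval -0.25 to 0.47) and EAP1 at -0.22 (interval -0.48 to 0.031), with adjusted p of 0.656 and 0.221 (limma).

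The paralogs TIF4631 and TIF4632 encode the 2 forms of the scaffold eIF4G. TIF4631 read 1293, 1269 and 1181 in the wild type and 1309, 1306 and 1482 in gcn4-delta, without overlap. TIF4632 read 852, 751 and 662 and 713, 707 and 717, with the gcn4-delta arrays inside the wild-type range. Their changes were 0.13 and -0.076, which differ by 0.21 on the log2 scale. In an exact two-sided permutation test of that difference over the 6 arrays p was 0.1, the smallest that 3 against 3 arrays allow, and 0.2 after Benjamini-Hochberg adjustment over the 4 paralog pairs compared.

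DED1 had the largest log2 difference between the strain means, and the widest spread, of the 31 members. It encodes a helicase that opens structured leaders during scanning. DED1 read 2019.95, 739 and 1675 in the wild type and 640.3, 1397 and 831 in gcn4-delta, with means of 1478 ± 663 and 956 ± 394 (SD, n = 3 each). Wild-type replicate 2 and gcn4-delta replicates 1 and 3 were low, and gcn4-delta replicate 2 lay between the low arrays and wild-type replicates 1 and 3, so the groups overlapped. The log2 change was -0.58 ± 0.43 (SE, adjusted p = 0.413, limma). It was -1.02 without wild-type replicate 2 (adjusted p = 0.0998) and -0.90 without gcn4-delta replicate 2. It was -0.30 without wild-type replicate 1 and -0.33 without gcn4-delta replicate 1. Its standard deviation within groups exceeded that of 97.9% of genes.

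In eIF3, the multisubunit complex that bridges the mRNA and the small subunit, 0 of 6 genes passed, with a median log2 change of 0.087. Its subunits lay on both sides of 0. TIF34, a core subunit, read 2671, 2661 and 2505 in the wild type and 3121, 3028 and 3160.3 in gcn4-delta. The groups were apart and the log2 change was 0.25 ± 0.077 (SE, adjusted p = 0.0886, limma). It passed after quantile normalization was applied again, at 0.31 (adjusted p = 0.0375), and in none of the fits without 1 array. HCR1, a loosely bound subunit, read 2626, 2804 and 2332 and 2933, 2945 and 2989 and was also higher on every gcn4-delta array, at 0.20 (adjusted p = 0.222), and PRT1, another core subunit, was at 0.15. TIF35, whose protein binds Tif34 in the same module, read 2398, 2148 and 1979 and 1796, 1669 and 2056, an overlapping pair of groups at -0.24 (adjusted p = 0.225). RPG1, for the largest subunit, read 2903, 2679 and 2477 and 2729, 2312 and 3211, with gcn4-delta replicates 2 and 3 the lowest and the highest of all arrays. Its change was 0.024, or -0.094 to 0.14 when single arrays were left out.

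NIP1, for a further core subunit of eIF3, read 2072, 1402 and 1894 in the wild type and 1405, 1761 and 1653 in gcn4-delta, at -0.14 ± 0.17 (SE, adjusted p = 0.603, limma). Its low arrays were wild-type replicate 2 and gcn4-delta replicate 1, both also low for DED1. The 2 genes thus ranked the arrays alike within each strain, although the spread of NIP1 was smaller.

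The genes of factors that select the start codon and join the subunits had 0 of 4 past the test and a median log2 change of 0.0060. FUN12, for eIF5B, read 3350.2, 3445 and 3141 in the wild type and 3664, 3273 and 3809.7 in gcn4-delta, at 0.11 (adjusted p = 0.465, limma). SUI1, for eIF1, was at -0.0013, TIF11, for eIF1A, at 0.013 and TIF5, for eIF5, at -0.0079. Their intervals were -0.20 to 0.19, -0.21 to 0.24 and -0.37 to 0.35. In the wild type all 3 were highest in replicate 1 and lowest in replicate 3, and TIF5 spread most, reading 1609, 1258 and 1120.2.

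**Figure D2:**
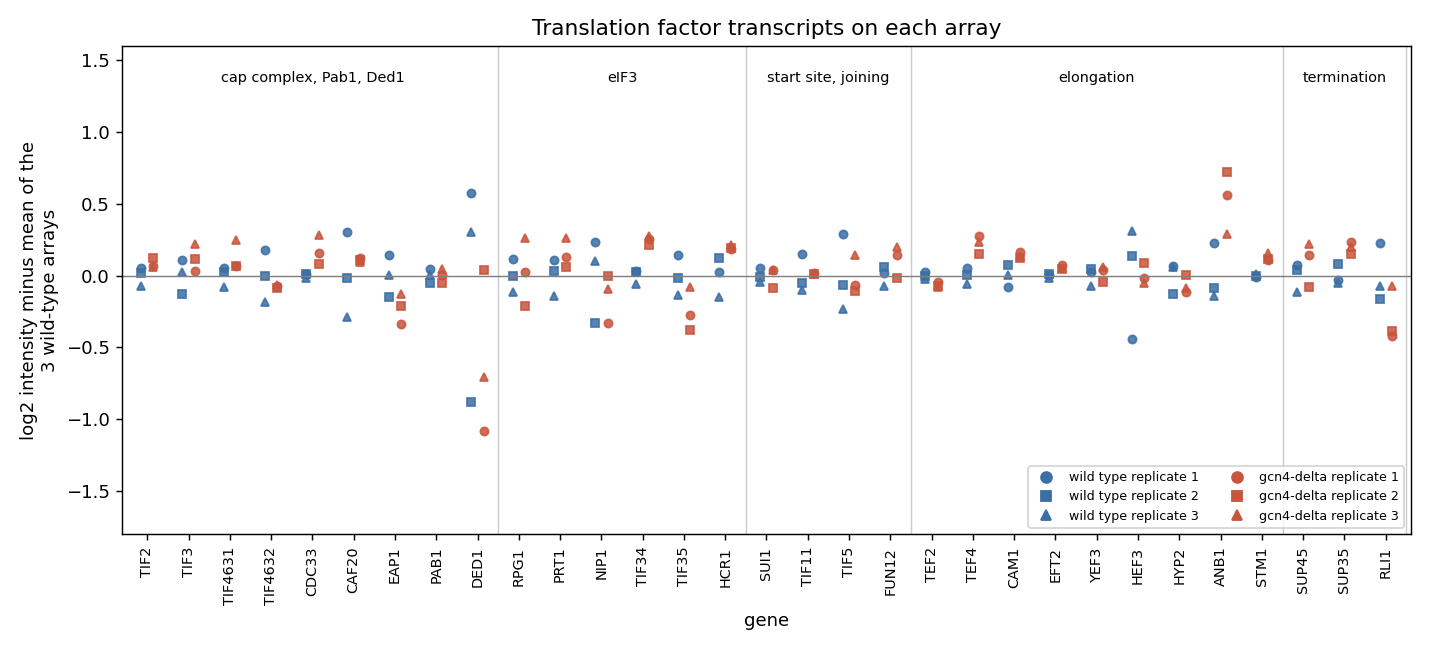
Each of the 31 translation factors on each of the 6 arrays, as log2 intensity minus the mean of the 3 wild-type arrays (y axis), grouped by role along the x axis. Blue points are wild type and red points gcn4-delta, with the shape giving the replicate. Most points lie within 0.5 of 0, and DED1, with intensities from 640.3 to 2019.95, spreads most.

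Elongation genes, 9 with a probe set, had 0 past the test and a median log2 change of 0.057. TEF2, for eEF1A, read 12962, 12703 and 12561 in the wild type and 12378, 12123 and 12054 in gcn4-delta, at -0.064 ± 0.074 (SE, adjusted p = 0.594, limma). EFT2, for eEF2, read 8071, 8131 and 7972 and 8502, 8302 and 8351, at 0.057 (adjusted p = 0.634). The groups did not overlap for either gene, in opposite directions, and both changes were under 0.1 on the log2 scale. Both values moved when the arrays were scaled again. After quantile normalization was applied again, TEF2 was at -2.1e-15 and EFT2 at 0.023. That step gives a gene of the same rank on every array the same value on each. The TEF2 value may thus be set by the step itself and does not tell if the transcript differed. After median centring TEF2 was at -0.056. EFB1, the catalytic subunit of eEF1B and no member of the list, was at 0.082 (adjusted p = 0.512). STM1, for a protein that protects idle ribosomes, read 6837, 6881 and 6924 and 7435, 7443 and 7682, higher on every gcn4-delta array at 0.13 (adjusted p = 0.296).

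TEF4 and CAM1, which encode forms of the gamma subunit of eEF1B, were both higher on every gcn4-delta array. TEF4 read 2332, 2256 and 2152 in the wild type and 2715, 2494 and 2639 in gcn4-delta, at 0.22 ± 0.082 (SE, adjusted p = 0.136, limma). CAM1 read 2925, 3249.6 and 3097 and 3469, 3369 and 3393, at 0.14 (adjusted p = 0.287). Their changes differed by 0.076 (exact permutation p = 0.4, 0.533 adjusted over the 4 pairs).

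YEF3 encodes eEF3 and HEF3 a close homolog that is little expressed in ordinary growth. YEF3 read 7391, 7511 and 6924 in the wild type and 7481, 7061 and 7593 in gcn4-delta, at 0.020 (interval -0.17 to 0.21). HEF3 read 139, 207 and 234 and 187, 200.4 and 182, above background on every array, at 0.0069 (interval -0.45 to 0.46). Wild-type replicate 1 was the lowest of the 6 arrays for HEF3, and the change of HEF3 was -0.22 without it (adjusted p = 0.2, limma). The changes of YEF3 and HEF3 differed by 0.014 (exact permutation p = 1), or by 0.25 without that array.

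HYP2 and ANB1 encode the forms of eIF5A, a factor modified with hypusine that helps ribosomes past difficult peptide bonds. HYP2 is the form of cells grown with air, and ANB1 is repressed by heme and oxygen. HYP2 read 5964, 5203 and 5914 in the wild type and 5258, 5711 and 5348 in gcn4-delta, at -0.064 (interval -0.28 to 0.15). ANB1 read 124, 99.7 and 95.7 in the wild type, a mean of 106 ± 15.0, and 156, 175 and 129 in gcn4-delta, a mean of 153 ± 22.9 (SD, n = 3 each). All gcn4-delta values of ANB1 were above the wild-type values, the nearest being gcn4-delta replicate 3 and wild-type replicate 1. The log2 change of ANB1 was 0.52 ± 0.15 (SE, adjusted p = 0.0718, limma). With wild-type replicate 1 left out ANB1 passed, at 0.64 (adjusted p = 0.0341), and it did so in none of the other 5 fits without 1 array, where adjusted p reached 0.229. The change of HYP2 minus that of ANB1 was -0.59 (exact permutation p = 0.1, the smallest possible, and 0.2 adjusted over the 4 pairs).

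**Figure D3:**
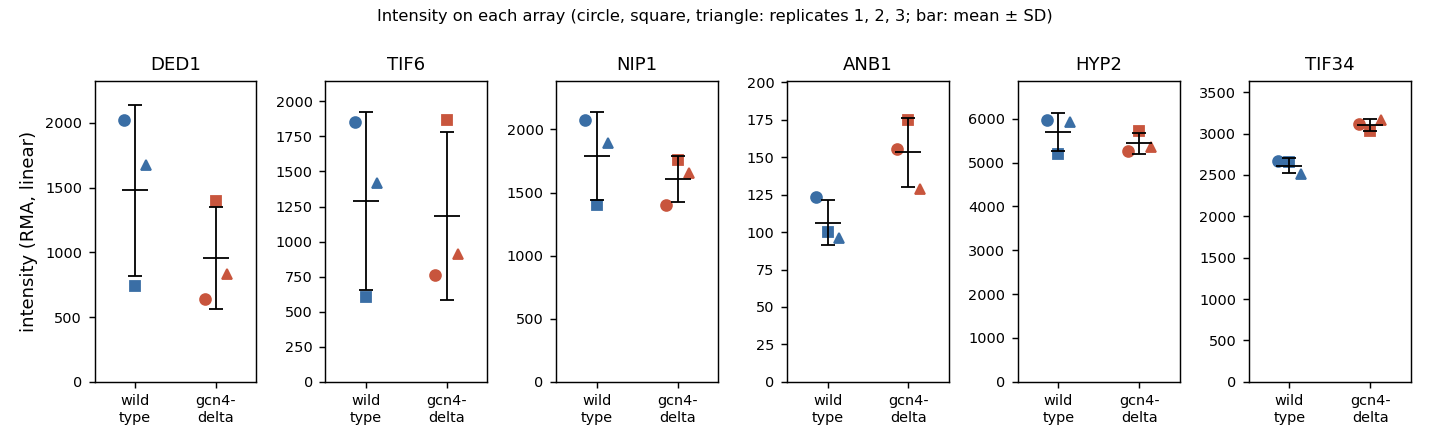
Intensity (linear RMA values, y axes starting at 0) of 6 genes on each array, wild type in blue and gcn4-delta in red, with circle, square and triangle for replicates 1, 2 and 3 and bars for the mean ± SD. DED1, TIF6 and NIP1 are low in wild-type replicate 2 and gcn4-delta replicate 1, while the strains do not overlap for ANB1 and TIF34.

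Of the 3 termination and recycling genes 0 passed, with a median log2 change of 0.095. SUP45, for eRF1, read 2668, 2602 and 2333 in the wild type and 2797, 2392 and 2951 in gcn4-delta, with overlap, at 0.095 (adjusted p = 0.599, limma). SUP35, for eRF3, read 1932, 2092 and 1899.8 in the wild type and 2323, 2187 and 2265 in gcn4-delta, without overlap, at 0.19 ± 0.082 (SE, adjusted p = 0.175). RLI1, for the recycling factor with iron-sulfur clusters, read 1699.7, 1299.5 and 1384 and 1082, 1114 and 1378. The RLI1 groups met only at gcn4-delta replicate 3, and the change was -0.29 ± 0.14 (SE, adjusted p = 0.228), or -0.40 without that array (adjusted p = 0.158).

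Other lists of the translation machinery are given beside the 11.3% of all genes that passed. Among the 8 subunits of eIF2 and eIF2B, 1 was higher and 0 lower, with a median log2 change of -0.078. The one higher was GCN3, the regulatory alpha subunit of eIF2B, at 0.32 (adjusted p = 0.0457, limma), a call lost in each of the 6 fits without 1 array (adjusted p 0.05002 to 0.173). Of 17 other measured genes of cytosolic translation, 1 was higher and 0 lower (median 0.082). This was TMA22, whose protein works with Tma20 in ribosome recycling, at 0.43 (adjusted p = 0.034), also lost in all 6 such fits (adjusted p 0.0519 to 0.134). TMA20 was at 0.20 (adjusted p = 0.209).

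Of 9 genes that build diphthamide on eEF2 or hypusine on eIF5A, 1 was lower and 0 higher (median 0.048). JJJ3, a J-protein of diphthamide synthesis, read 129, 103 and 105 in the wild type and 76.0, 78.7 and 74.6 in gcn4-delta, all gcn4-delta values below all wild-type values. It fell by 0.55 on the log2 scale (adjusted p = 0.024, limma) and passed in 2 of the 6 fits without 1 array, with adjusted p up to 0.114. DPH2 and DPH5 of the same pathway were at -0.35 and 0.32 and did not pass (adjusted p = 0.117 and 0.0752). DYS1 and LIA1, the enzymes of hypusine synthesis, were at 0.058 and 0.071. Of 8 mitochondrial translation factors 0 passed in limma, also 0 at an unadjusted p under 0.05 (median 0.045).

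Cytosolic ribosomal protein genes lay slightly above 0 in gcn4-delta. Of 127, 120 had a log2 change above 0, with a median of 0.10, beside 20 of 31 and 0.057 for the translation factors and 55.7% and 0.035 for all genes. For 26 of the 127 the suffix of the probe set marks probes shared between transcripts. All these genes were read on the same 6 arrays, so they are not separate observations and the count of 120 is a description. In limma 4 of the 127 were higher and 0 lower. These were RPS14B at 0.68, RPL22B at 0.41, RPL31B at 0.40 and RPS22B at 0.40 (adjusted p = 0.046, 0.0236, 0.0499 and 0.0412). The count was 6 without wild-type replicate 1, 1 without wild-type replicate 2 or 3, and 0 without any one gcn4-delta array. RMA sets arrays that are normalized in 1 run to one distribution of probe values, so a shift shared by most bright genes would be reduced by it. It is not stated if these arrays were normalized in 1 run, and whether such a reduction happened here was not tested.

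**Figure D4:**
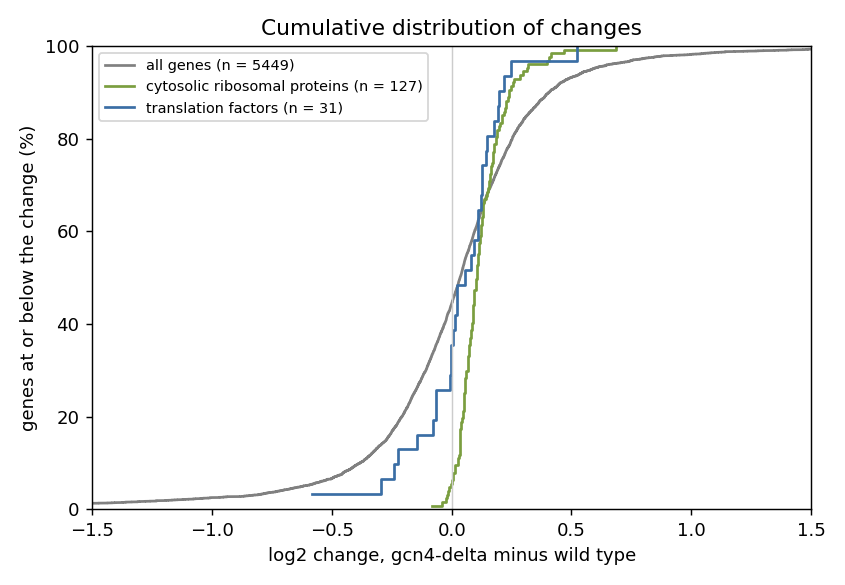
Cumulative share of genes (y axis, percent) at or below a given log2 change, gcn4-delta minus wild type (x axis), for all 5449 genes, 127 cytosolic ribosomal protein genes and 31 translation factors. The medians are 0.035, 0.10 and 0.057.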

How the data were processed

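RNA of 6 samples was hybridised, 1 array each. The authors deposited linear intensity values, which RMA made from the probes of each set per the submitters' processing notes. Its version is not stated there, nor if the arrays were normalized in 1 run. Of 10928 probe sets, 5498 matched 5449 yeast genes of the R64 table through the platform annotation's gene identifier, and the brightest stood for a gene. Here log2 was taken with no further scaling. On all 5498, limma 3.58.1 in R 4.3.3 (lmFit, eBayes, 1 fit of all 6 arrays, no covariates) was run. Adjustment was by Benjamini-Hochberg, with a threshold of 0.05. Background is the 95th percentile of 1746 named probe sets of other genes on each array. Precision is limited by having 3 arrays a group. Columns of other samples numbered 0.

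Members and lists were chosen with earlier results of these data known. All members are named. Values on every array are given for the largest change in each role and for paralogs, plus some members chosen after their values were seen. At most 4 called genes of each other list are named. RPP1, an RNase P subunit that the symbol rule for ribosomal proteins also matched, was left out after its values were seen (with it, 120 of 128 genes were above 0 and 4 passed). Settings varied were a block on the replicate number, the omission of each array, quantile normalization, median centring, 2 filters on dim probe sets, a trended robust prior and averaging of probe sets within genes. The array build is not given, so no coordinates are printed, and no sequences were used here. Plots were made in Python 3.11.15 with matplotlib 3.10.9.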

Additional observations from a re-analysis of the deposited data

How the results depend on the processing

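The count of translation factors lower in gcn4-delta was 0 under every alternative run. The count higher was 0, except 1 after quantile normalization was applied again (TIF34), and 0 to 1 when each array was left out (ANB1, without wild-type replicate 1). Their median log2 change was 0.036 to 0.10 over these omissions. The count over all genes moved more: 220 to 713 changed, 62 to 355 higher and 158 to 358 lower without 1 array, the lowest without gcn4-delta replicate 1. It was 258 without gcn4-delta replicate 2, 372 without gcn4-delta replicate 3 and 384 without wild-type replicate 3. Subunits of eIF2 and eIF2B higher numbered 0 in each omission, as did the other cytosolic translation genes higher. Factor-modifying genes lower numbered 0 to 1, and ribosomal protein genes higher 0 to 6. With the replicate number as a block 210 genes changed, 57 higher and 153 lower, and 0 translation factors passed. Deviations of same-numbered arrays from their group means correlated at -0.34, -0.39 and -0.23 across genes, and no array correlated best with its own number. The highest correlation was 0.56, of wild-type replicate 2 with gcn4-delta replicate 1. The deviations sum to 0 within each strain, so these correlations cannot tell if arrays were handled in pairs.

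Members with changes near 0 took the other sign in some fits, none past the threshold. Without 1 array the ranges were TIF4632 -0.17 to 0.015, CAF20 -0.033 to 0.26, PAB1 -0.026 to 0.025, RPG1 -0.094 to 0.14, SUI1 -0.025 to 0.040, TIF11 -0.038 to 0.090, TIF5 -0.12 to 0.14, YEF3 -0.015 to 0.052 and HEF3 -0.22 to 0.16, and the change of YEF3 minus that of HEF3 ranged over -0.18 to 0.25. After quantile normalization again, PAB1 was at 0.032, SUI1 at 0.050, TIF5 at 0.017, YEF3 at -0.0023 and HEF3 at -0.014. After median centring, PAB1 was at 0.0079, SUI1 at 0.0074 and TIF5 at 0.00084. The cause was not tested. A filter that dropped the dimmest 25% of probe sets removed HEF3 and ANB1.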

Other observations

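The array-to-array pattern of DED1 recurred in other genes, both of translation, such as TIF6, and outside it, a comparison made after its values were seen. Of 381 other genes with a standard deviation within groups above 0.4 on the log2 scale, 66 (17.3%) followed the deviations of DED1 from its group means with Pearson's r over 0.95, across the 6 arrays, and 1, YPR027C, ran opposite as closely. The 6 deviations sum to 0 within each strain, and all genes share the arrays, so r is a description. TIF6, for a factor that keeps the large ribosomal subunit from joining too early, read 1849.8, 602 and 1417 in the wild type and 762, 1865 and 911 in gcn4-delta. VMA7, for a subunit of the vacuolar ATPase, read 2561, 1429.6 and 2316 in the wild type and 1667, 2806 and 1978 in gcn4-delta. RIF1, for a protein that limits telomere length, read 440.00, 125 and 369.6 in the wild type and 127, 370.3 and 169 in gcn4-delta. DHH1, for a helicase of mRNA decay, read 718, 321 and 656 in the wild type and 412, 824 and 491 in gcn4-delta. Wild-type replicate 2 and gcn4-delta replicates 1 and 3 were the low arrays for each of these 4. Of the 66 genes, 2 passed the test between the strains, both lower in gcn4-delta, SRL4 and MET13 (adjusted p = 0.000108 and 0.0295, limma). All 66 were picked for a standard deviation within groups above 0.4, where the median of all genes was 0.14. A wide spread makes this test harder to pass, so the count cannot be compared with the 11.3% of all genes that passed.

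Genes regulated by oxygen or heme, listed after the values of ANB1 were seen, lay on both sides of 0. COX5B, the hypoxic form of a cytochrome oxidase subunit, differed by 0.48 on the log2 scale with overlapping groups (adjusted p = 0.132, limma). Its aerobic counterpart COX5A differed by 0.0018. CYC7, the hypoxic form of cytochrome c, fell by 0.45 on the log2 scale (adjusted p = 0.0229), below every wild-type array on 3 of 3 gcn4-delta arrays and past the threshold in 2 of 6 fits without 1 array (adjusted p 0.0301 to 0.133), and its aerobic counterpart CYC1 was at -0.011. AAC3, the hypoxic ADP/ATP carrier, was at 0.0057, the heme synthesis gene HEM13 at -0.20, and ROX1, for the repressor of hypoxic genes, at 0.21 (adjusted p = 0.978, 0.284 and 0.216). Also listed were PET9 at 0.045, HMG2 at 0.13 and TIR1 at 0.11 (adjusted p = 0.775, 0.518 and 0.447, limma). DAN1 was at -0.48 (adjusted p = 0.578), above background on 1 wild-type array and 0 gcn4-delta arrays.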
